A study of Mus musculus with 15 samples.

Results

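Chaperone genes were followed across the postnatal maturation of fast-spiking interneurons in the mouse primary somatosensory cortex. The genes were chosen by symbol alone: the Hspa, Hspb, Hspd, Hspe, Hsph and Hsp90 heat shock protein genes, the Dnaja, Dnajb and Dnajc genes, the Cct genes with Tcp1, and the Bag genes. The rule took 86 of the 18193 genes on the Affymetrix whole-genome mouse array. Each gene was read from 1 probe set, the one with the highest mean over all arrays among those annotated to that gene alone. The neurons carried the GFP label of the G42 transgenic line, were freed from slices with a protease and picked by hand, and their RNA was amplified over 2 rounds before hybridization. 15 animals gave 1 array each, 3 at each of 5 ages: postnatal day (P) 7, P10, P15, P25 and P40, where the oldest group reached day 45. All animals were of the same line, so age is the comparison and every group had been through the same slicing, protease and picking steps. The line marks a subset of parvalbumin-class cells by its transgene, between 23 and 85 cells were pooled per animal, and no unlabelled cells were analysed here.

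Chaperones bind proteins that are not folded and release them for another attempt. HSP70 proteins grip short hydrophobic stretches under control of ATP; J-domain proteins (the DNAJ genes) bring clients and trigger ATP hydrolysis, and BAG and HSP110 proteins open the nucleotide pocket so that the client leaves. HSP90 acts later on kinases and receptors, the ring-shaped CCT chaperonin folds actin and tubulin, the HSPD1 and HSPE1 chaperonin works inside mitochondria, and small HSPB proteins hold unfolded chains without ATP. In neurons HSP70 also strips clathrin from endocytosed synaptic vesicles with auxilin (Dnajc6), and the J protein encoded by Dnajc5 protects the release machinery. The heat shock factor HSF1 switches many of these genes on by binding repeated GAA and TTC units near their start sites.

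Values are the deposited log2 probe set values, and 5 was taken as the limit between signal and background. Of the 86 genes, 70 exceeded 5 on at least 3 of the 15 arrays and were tested, 62 of them exceeded 5 on all 15 arrays, and 16 had no array over 5, with no value above 3.65. Those at background were 4 of 8 Hspb genes (Hspb1, Hspb2, Hspb7 and Hspb9), Hspa1l and Hspa12b, the CCT homologues Cct6b and Cct8l1, and the J-protein genes Dnajb3, Dnajb7, Dnajb8, Dnajb13, Dnajc5b, Dnajc5g, Dnajc22 and Dnajc25. Pvalb, which defines the cell class, read 14.28 ± 0.20 (SD, n = 3) at P40 and 3.62 ± 0.72 at P7, so the class marker was itself at background at the youngest age. In the same 10-gene list Gad1 averaged 13.88, Slc32a1 13.02, Lhx6 12.11 and Erbb4 4.68 at P7. Of its 9 tested genes, 7 were called higher at P40 and 2, Lhx6 and Nxph1, lower. Between 6 and 9 genes of each 9- or 10-gene list for excitatory neurons, oligodendrocytes and their precursors, microglia, and endothelial and mural cells never exceeded 5. Markers of other interneuron classes were present: Sst read 9.20 to 13.04 on 14 arrays and 1.72 on P40 replicate 1, Npy 9.98 to 14.32, and of the 4 tested genes of that list Cck was 11.7-fold higher and Reln 6.49-fold lower at P40. The astrocyte list moved with age: its mean level over 10 genes was 3.74 to 5.01 at P10 and 3.88 to 5.76 at P25, against 3.06 to 3.91 at the other ages, while the defining gene Gfap stayed between 2.40 and 2.80. Other astrocyte genes did exceed 5. Slc1a2 averaged 8.44 ± 0.13 (SD, n = 3) at P10 and 4.85 ± 0.95 at P7, and Gja1 reached 9.65 on P25 replicate 2. S100b was called higher at P40, at 5.96 ± 2.21, against 3.46 ± 0.11 at P7. Slc1a2 was called lower at P40 than at P7 (adjusted p = 0.015 by limma), with both means under 5. Of the 6 tested astrocyte genes, 1 was called higher at P40, 1 lower and 4 were not called (median log2 difference -0.554). The oligodendrocyte list, over 9 genes, was at 4.77 to 5.29 at P25 and at 3.69 to 4.45 at the other ages. The part of other cells in the results below was not tested. The beta-actin 3′ minus 5′ difference (a sign of how short the amplified RNA was) was 3.93 ± 0.55 (SD, n = 3) at P40 and 5.77 ± 0.98 at P7, and P15 replicates 2 and 3, with 3.99 and 3.54, lay near the P40 arrays. Spiked hybridization controls averaged 2.51 and 2.47 on those 2 P15 arrays and 9.88 or more on the others.

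How far did chaperone transcripts differ between the oldest and the youngest cells? Whole pools of cells were read, so fewer cells of a type and less RNA per cell cannot be told apart. 30 of the 70 tested genes were higher at P40 and 6 were lower by limma at an adjusted p under 0.05, a share of 51.4% called, against 45.2% of all 9663 tested genes. Higher calls made up 42.9% of the chaperone genes and 27.5% of all genes, and lower calls 8.57% and 17.6%. The median log2 difference was 0.58 over the 70 genes and 0.18 over all tested genes. 20 of the rises and 4 of the falls were at least 2-fold. On 42 of the 70 genes (60.0%) the 3 P40 arrays did not overlap the 3 P7 arrays, against 55.7% of all tested genes. A gene tested only because it was high at 1 age had to differ, so the 62 genes over 5 on every array are given apart: 25 were higher and 5 lower (40.3% and 8.06%, against 27.35% and 16.95% of the 7573 genes of that kind). 13 genes kept their call under each of the 28 other settings in which they were tested: Bag3, Dnaja4, Dnajb2, Dnajc12, Dnajc15, Dnajc16, Dnajc18, Dnajc27, Dnajc28, Hspa12a, Hspa4l, Hspb3 and Hspb8. Once the actin difference entered the fit as a covariate, 14 of the 70 were called, 13 higher and 1 lower, when 27.4% of all genes were. The median level of all tested genes was itself 8.78 ± 0.06 (SD, n = 3) at P40 and 8.56 ± 0.15 at P7, and after scaling every array to the same median the split was 25 higher and 10 lower.

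**Figure D1:**
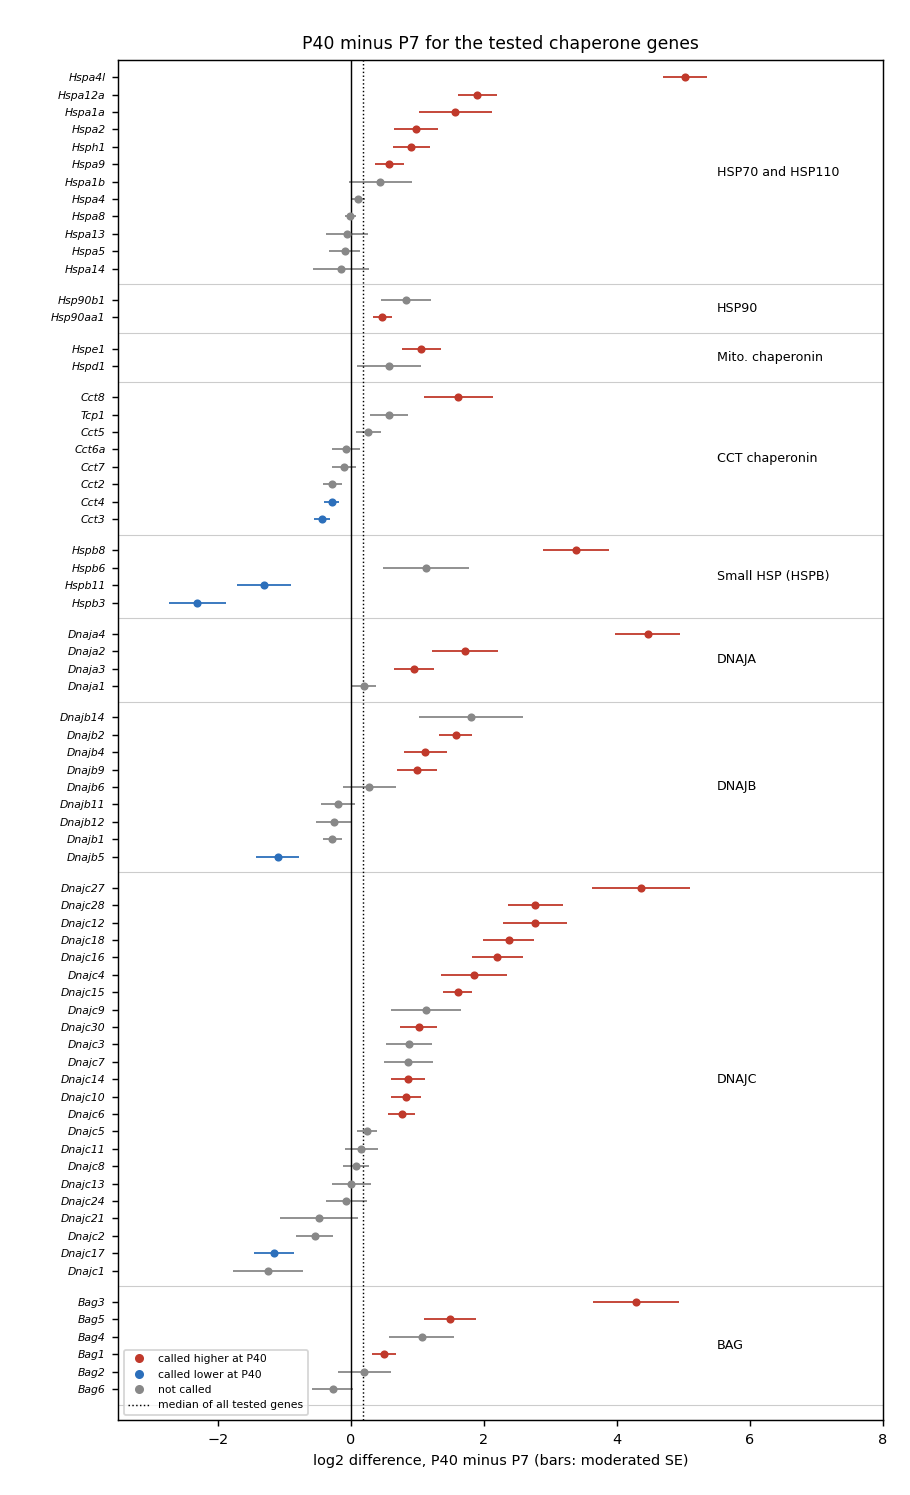
P40 minus P7 difference on the log2 scale (horizontal axis) for each of the 70 tested chaperone genes, grouped by family, with the moderated SE as bars. Red marks genes called higher at P40, blue genes called lower, grey genes not called, and the dotted line is the median of all tested genes, 0.18. Hspa4l (5.02) lies farthest right, and most CCT genes lie near 0. The points of Dnaja4, Bag3, Hspb8, Dnajc28 and Hspb6 rest on P7 means under 5 and have no exact size. Those of Hspb3 and Hspb6 rest on P40 means under 5 and have no exact size either.

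Among the 12 tested HSP70 and HSP110 genes, 6 were higher at P40, 0 were lower and 6 were not called. Counts by family, here and below, are to be read against 27.5% higher and 17.6% lower over all tested genes. Hspa4l, which encodes an HSP110-type exchange factor for HSP70, had the largest difference of the 70 genes. It read 7.76, 7.18 and 8.10 at P7, 9.40, 9.42 and 10.69 at P10, 11.13, 11.66 and 11.91 at P15, 12.18, 11.99 and 12.40 at P25 and 12.76, 12.66 and 12.67 at P40. The 3 arrays of each age lay above all arrays of the age before, and the P40 mean was 32.5-fold the P7 mean (log2 difference 5.02, SE 0.33, adjusted p = 5.5e-08). All 5 of its probe sets read higher at P40, with log2 differences from 3.33 to 6.47. Its close relative Hspa4 averaged 13.98 ± 0.07 (SD, n = 3) at P40 and 13.87 ± 0.12 at P7, with a difference of 0.11 (SE 0.10, adjusted p = 0.37). Another Hspa4 probe set, over 5 on all 15 arrays, gave 0.27. A further one, over 5 on 11 arrays, averaged 6.76 at P40 and 4.75 at P7. Hsph1, the inducible HSP105, read 13.01, 12.04 and 12.71 at P40, against 12.20, 11.57 and 11.26 at P7, so the lowest P40 array lay under the highest P7 array although the gene was called (1.88-fold higher, adjusted p = 0.016).

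Hspa8, the constitutive HSP70 that uncoats clathrin vesicles, read 15.73, 15.57 and 15.76 at P40, against 15.56, 15.81 and 15.72 at P7, a difference of -0.01 (SE 0.08, adjusted p = 0.95). These values sit close to the highest value on any array, 16.13, and its 3 other probe sets gave 0.73, 0.92 and -0.97. Hspa5, the HSP70 of the endoplasmic reticulum (BiP), read 13.22, 12.75 and 13.22 at P40, against 13.49, 13.13 and 12.86 at P7 and was not called (difference -0.09, adjusted p = 0.77). Averaged over probe sets, Hspa5 was called lower (-0.58). Hspa9, the mitochondrial HSP70 mortalin, read 12.84, 12.65 and 13.00 at P40, against 12.43, 12.19 and 12.14 at P7 and was 1.49-fold higher (adjusted p = 0.042). Hspa12a, an atypical brain-rich HSP70, read 11.02, 10.60 and 10.83 at P40, against 9.01, 9.39 and 8.35 at P7, 3.74-fold higher with no overlap (SE 0.30, adjusted p = 0.00014). Its log2 difference of 1.90 was 1.09 over all its probe sets, still called. That average took in probe sets never over 5. The other Hspa12a probe set with signal, over 5 on 14 arrays, gave 2.87. Hspa2 read 6.03 ± 0.07 (SD, n = 3) at P40, near the limit, and 5.05 ± 0.35 at P7, a difference of 0.98 (adjusted p = 0.024). Hspa13 and Hspa14 were not called (-0.06 and -0.15). The call of Hspa9 was lost under 16 of 28 other settings, among them equal medians (0.36), and without P7 replicates 2 or 3, P15 replicates 2 or 3, P25 replicates 1 or 2 or P40 replicates 1 or 3 (0.49 to 0.58). Hsph1 lost its call without P7 replicates 2 or 3 or P40 replicates 1 or 3 (0.69 to 0.86), and Hspa2 without P7 replicates 1 or 2 or P40 replicates 1 or 3 (0.86 to 1.00).

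The heat-inducible pair Hspa1a and Hspa1b lies close together on chromosome 17, and the promoter windows of the copies share 296 of 300 bases, so probe sets for one may also catch the other. Hspa1a read 8.76, 9.29 and 9.24 at P40, against 8.16, 8.16 and 6.26 at P7, 2.97-fold higher at P40 (SE 0.55, adjusted p = 0.03). P7 replicate 3 was the low array, and without it the difference was 0.93 and not called, nor was it called without P40 replicates 2 or 3 (1.47 and 1.5). Hspa1b read 8.36, 9.19 and 9.35 at P40, against 8.67, 9.34 and 7.58 at P7, an overlap (difference 0.44, SE 0.47, adjusted p = 0.47). Both were over 5 on all 15 arrays, as was the inducible J-protein gene Dnajb1, which read 12.26, 12.18 and 12.51 at P40, against 12.45, 12.80 and 12.55 at P7 (difference -0.28, adjusted p = 0.13). Dnajb1 was called lower after quantile normalization (-0.43) or scaling to equal medians (-0.50). Of 13 tested immediate early genes, which can respond to dissociation, 9 were called lower at P40 and 0 higher. Over all tested genes 17.6% were lower and 27.5% higher. Fos read 9.65, 10.45 and 10.07 at P40, against 13.66, 13.46 and 12.83 at P7. The part of dissociation in these values was not tested.

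Because HSF1 acts through GAA and TTC units, the RefSeq promoter windows of the members (GRCm38.p6, 250 bases before to 50 after each start site) were searched on both strands for the units GAA, TTC and GAA in that order with any 2 bases between neighbours. The pairs within that form, GAA then TTC and TTC then GAA with the same spacing, were searched too and overlap it. 71 of the 86 genes had a window. The form with 3 units occurred in 4 of the 71 genes, Hspd1, Hspe1, Hsph1 and Dnajb6, and in 0.603% of all 32851 windows. The pair with GAA first occurred in 17 of the 71 genes and in 7.86% of all windows. The pair with TTC first occurred in 8 of the 71 genes and in 8.52% of all windows. A gene counted if any of its windows matched, and the 71 genes had 91 windows. By gene, the 3 forms in this order occurred in 5.63%, 23.9% and 11.3% of the 71. They occurred in 0.634%, 6.62% and 8.05% of the 7889 tested genes with a window. Stretches that hold a match are shown because they let the reader set the inducible genes beside the genes that rose most. Units of the match are in capitals, and positions count from the start site at 0.
Hspe1 (chr1:55088053-55088082, plus strand): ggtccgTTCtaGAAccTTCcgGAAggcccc
Hsph1 (chr5:149636278-149636307, minus strand): ctgcagaTTCtgGAAagTTCtcctcagtag
Dnajb6 (chr5:29735818-29735897, plus strand): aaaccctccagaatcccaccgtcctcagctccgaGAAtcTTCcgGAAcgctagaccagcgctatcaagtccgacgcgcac
Hspa1a (chr17:34972217-34972296, minus strand): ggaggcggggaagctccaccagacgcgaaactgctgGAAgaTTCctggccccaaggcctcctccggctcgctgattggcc
Hspa1b (chr17:34959299-34959378, minus strand): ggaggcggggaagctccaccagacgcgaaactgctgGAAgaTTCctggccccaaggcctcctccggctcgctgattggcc
Dnaja4 (chr9:54699458-54699487, plus strand): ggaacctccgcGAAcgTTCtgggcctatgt
Dnaja4, second match (chr9:54699496-54699525, plus strand): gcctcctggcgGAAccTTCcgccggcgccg
Dnajc27 (chr12:4082334-4082393, plus strand): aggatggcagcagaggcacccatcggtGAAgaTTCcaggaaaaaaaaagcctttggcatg
Bag3 (chr7:128523603-128523632, plus strand): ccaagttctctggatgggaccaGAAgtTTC
Hspb8 (chr5:116422845-116422874, minus strand): cagaagccaggaGAAgtTTCtaggctcgcg
The Hspe1 stretch, from -95 to -66, is also the Hspd1 promoter read from the other strand, since 1 of the Hspd1 start sites lies 216 bases away on the opposite strand, and holds 4 alternating units. The stretches of Hspa1a and Hspa1b do not differ in any letter. Of the 12 largest fitted rises at P40, 10 genes had a window and 4 of them held the pair with GAA first (Dnaja4 with 2 matches, Dnajc27, Bag3 and Hspb8), while Hspa4l held none of the 3 forms. Among members with a window, 25 were called higher at P40 and 33 were tested and not called higher. The form with 3 units occurred in 2 of the 25 (8.0%) and 2 of the 33 (6.06%). The pair with GAA first occurred in 7 of the 25 (28.0%) and 7 of the 33 (21.2%). Over all tested genes with a window, 30.1% of the 522 with that pair were higher at P40, against 27.8% of all 7889. A match is a run of letters, not a measured binding site, and Hsf1 itself was not analysed here.

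**Figure D2:**
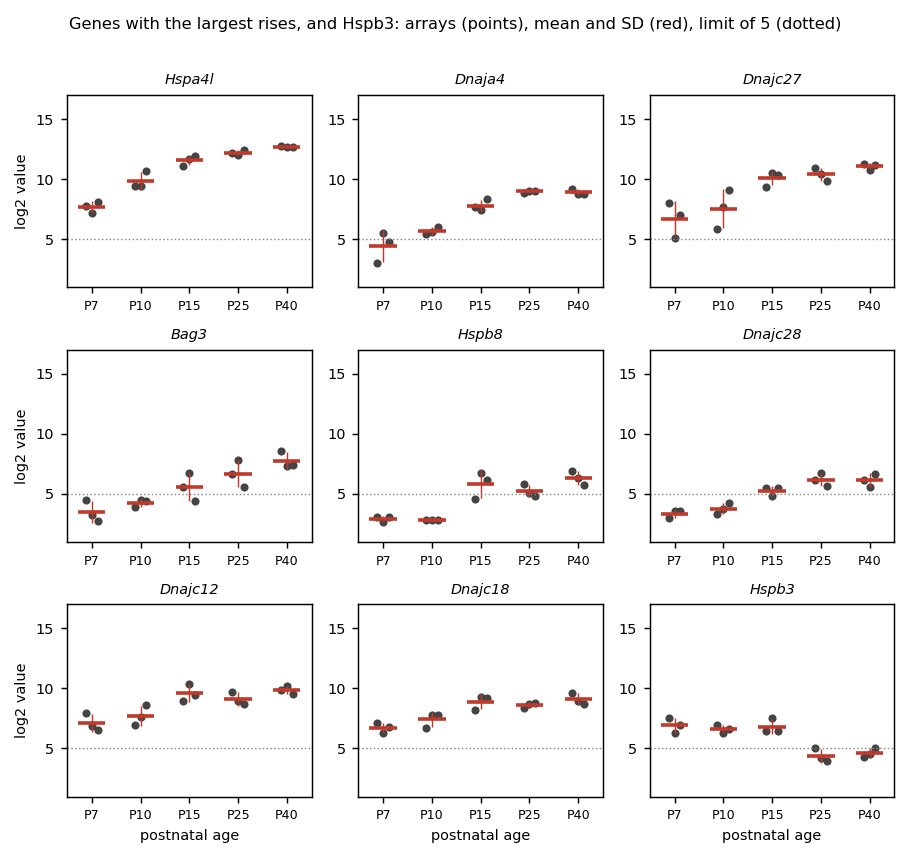
Log2 value (vertical axis) by postnatal age (horizontal axis) for the 8 genes with the largest fitted rises at P40 and for Hspb3. Points are arrays, red bars the mean and SD of 3 arrays, and the dotted line the limit of 5. Bag3, Hspb8 and Dnajc28 lie under the limit on all P7 arrays and over it on all P40 arrays, and Hspb3 falls under it at P25 on 2 of 3 arrays.

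Bag3 and Hspb8 encode partners: the BAG domain protein BAG3 holds the small heat shock protein HSPB8 and HSP70 on damaged proteins that are sent to autophagy. Both were at background at P7 and over 5 at P40. Bag3 read 4.47, 3.21 and 2.76 at P7, 3.87, 4.47 and 4.38 at P10, 5.57, 6.72 and 4.43 at P15, 6.69, 7.79 and 5.60 at P25 and 8.60, 7.34 and 7.36 at P40. All P7 and P10 arrays lay under 5 and all P25 and P40 arrays over it, with P15 split. Taking 5 as the P7 level, Bag3 was at least 6.80-fold higher at P40. Its adjusted p by limma was 9.7e-05 on the deposited values and 0.00054 with values under 5 set to 5. Hspb8 read 3.11, 2.65 and 3.04 at P7, 2.85, 2.85 and 2.84 at P10, 4.55, 6.75 and 6.18 at P15, 5.83, 5.11 and 4.84 at P25 and 6.88, 6.36 and 5.72 at P40. It stayed under 5 at P7 and P10 and exceeded 5 on all P40 arrays, at least 2.50-fold higher. The adjusted p of Hspb8 was 7.9e-05 on the deposited values and 0.012 with values under 5 set to 5. Dnajc28, a J-domain gene, was the third of this kind, with 6.17, 5.53 and 6.68 at P40, against 2.97, 3.53 and 3.56 at P7. It was at least 2.19-fold higher, with an adjusted p of 8.7e-05 on the deposited values and 0.0072 with values under 5 set to 5. These 3 of 70 genes compare with 2.03% of all tested genes that were at or under 5 on all P7 arrays and over 5 on all P40 arrays. Each of the 3 was read from 1 probe set with signal, and the other probe sets of Hspb8 and Dnajc28 never exceeded 5.

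The other small heat shock protein genes divided. Of 4 tested Hspb genes, Hspb8 was higher, Hspb3 and Hspb11 were lower and Hspb6 was not called. Hspb3, best known from muscle, read 7.54, 6.27 and 6.98 at P7, 6.94, 6.27 and 6.66 at P10, 6.44, 7.54 and 6.50 at P15, 5.02, 4.18 and 3.93 at P25 and 4.25, 4.54 and 5.06 at P40. The 9 arrays of the first 3 ages lay above all 6 of the last 2, and the step from P15 to P25 was the only chaperone call in that interval (adjusted p = 0.0049). It was also called lower in P40 minus P7 (adjusted p = 0.00058). Since 2 of 3 arrays at P25 and 2 of 3 at P40 were under 5, the exact sizes are not given. With values under 5 set to 5 the log2 differences were -1.82 for P25 minus P15 and -1.91 for P40 minus P7. Hspb11, which despite its symbol encodes the intraflagellar transport protein IFT25, read 8.17, 8.69 and 8.19 at P40, against 9.57, 10.30 and 9.09 at P7, 2.47-fold lower (adjusted p = 0.018). Its call was lost without P7 replicate 2 (-0.98) and without P40 replicates 1 or 3 (-1.21 and -1.22). Hspb6 crossed the limit on 5 of 15 arrays, with 4.95, 5.12 and 4.66 at P40, against 5.29, 3.58 and 2.48 at P7. It was not called (adjusted p = 0.17), but was called higher without P7 replicate 1. Both its means lay under 5, so no exact size is given. With values under 5 set to 5 the log2 difference of Hspb6 was -0.06. Hspb1, the main inducible small heat shock protein of many tissues, had no array over 5, with a mean of 3.26 at P40 and 3.27 at P7.

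Of the 36 tested J-domain genes, 17 were higher at P40 and 2 were lower. This is to be read against 27.5% higher and 17.6% lower over all tested genes. The 70 chaperone genes, which include the 36, had 42.9% higher and 8.57% lower. In the DNAJA class, whose members act with HSP70 in cytosol and mitochondria, 3 of 4 were higher. Dnaja4 read 3.00, 5.54 and 4.80 at P7, 5.40, 5.56 and 6.02 at P10, 7.66, 7.39 and 8.34 at P15, 8.88, 9.04 and 9.05 at P25 and 9.22, 8.75 and 8.77 at P40. 2 of 3 P7 arrays were under 5 and every array from P10 on was over it, and P25 and P40 arrays lay above all earlier ones (adjusted p = 6e-06). Its P7 mean of 4.45 is under the limit, so the fitted difference of 4.46 has no exact meaning. It was 3.73 with values under 5 set to 5, 3.74 without P7 replicate 1, its lowest array, and 2.73 averaged over probe sets, called each time. That average took in a probe set never over 5. The other Dnaja4 probe set with signal, over 5 on 11 arrays, averaged 8.42 at P40 and 4.53 at P7. Dnaja2 read 12.23, 11.89 and 12.12 at P40, against 11.34, 10.12 and 9.63 at P7, 3.29-fold higher (adjusted p = 0.011), a call lost without P7 replicate 3 (1.35) and with the actin difference fitted (0.90). The mitochondrial Dnaja3 was 1.93-fold higher (adjusted p = 0.018), a call lost without P7 replicate 3 (0.73) or P40 replicate 2 (0.79). Dnaja1, the main cytosolic member, read 14.14, 14.29 and 14.14 at P40, against 14.30, 13.70 and 13.98 at P7, an overlap (difference 0.20, adjusted p = 0.39). Its other probe sets, over 5 on all 15 arrays, gave 0.48 and 0.90.

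Among 23 tested DNAJC genes 11 were higher and 1 lower. Dnajc27 encodes a small GTPase fused to a J domain and read 8.04, 5.10 and 7.01 at P7, 5.83, 7.68 and 9.08 at P10, 9.39, 10.54 and 10.35 at P15, 10.94, 10.44 and 9.85 at P25 and 11.28, 10.80 and 11.17 at P40. The P7 arrays were far apart and still lay below every P15, P25 and P40 array (20.6-fold at P40, SE 0.73, adjusted p = 0.00025). The log2 difference of 4.37 was 5.03 without P7 replicate 1 and 3.56 without P7 replicate 2, and between 3.18 and 3.70 with either covariate or over all its probe sets, called throughout. Dnajc12, a J protein that binds the aromatic amino acid hydroxylases, read 9.90, 10.23 and 9.53 at P40, against 7.95, 6.84 and 6.54 at P7, 6.84-fold higher (adjusted p = 0.00033); its log2 difference of 2.77 was 1.77 with the actin difference fitted, and that of Dnajc18 was 1.78 in place of 2.37. Dnajc18 and Dnajc16, whose products sit in the membrane of the endoplasmic reticulum, were 5.18-fold and 4.61-fold higher (adjusted p = 0.0002 and 0.0003). Dnajc4 read 8.86, 9.48 and 8.60 at P40, against 7.11, 8.15 and 6.13 at P7, 3.61-fold higher (adjusted p = 0.0067). The mitochondrial inner membrane J protein gene Dnajc15 read 10.96, 10.49 and 10.88 at P40, against 8.94, 9.55 and 9.02 at P7, 3.05-fold higher with little spread (SE 0.22, adjusted p = 4.1e-05). Dnajc17, linked to RNA splicing, was the only DNAJC gene called lower, with 8.69, 8.81 and 8.77 at P40, against 9.30, 10.02 and 10.43 at P7 (difference -1.16, adjusted p = 0.0056). The other DNAJC rises were Dnajc30 (2.02-fold), Dnajc14 (1.80-fold), a call lost without P40 replicate 2 (0.71), and Dnajc10 (1.77-fold), which encodes a reductase of the endoplasmic reticulum with a J domain. The 11 DNAJC genes not called ran from -1.24 (Dnajc1) to 1.13 (Dnajc9). Of these, Dnajc1 was called lower, and Dnajc3 and Dnajc7 higher, under 6 other settings each. Dnajc21 gave -0.48, while its probe sets over 5 on 10 and 13 arrays gave 0.26 and 2.00.

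Beside Hspa8, J proteins with synaptic roles were read from Dnajc6 and Dnajc5. Dnajc6, neuronal auxilin, read 11.83, 11.88 and 11.86 at P40, against 11.57, 10.91 and 10.81 at P7, 1.70-fold higher with no overlap (SE 0.20, adjusted p = 0.0066). Its highest mean was 12.19 ± 0.09 (SD, n = 3) at P15. Dnajc5, which encodes cysteine string protein, read 12.88, 12.63 and 12.73 at P40, against 12.71, 12.38 and 12.44 at P7, an overlap (difference 0.24, SE 0.15, adjusted p = 0.19), and its other probe sets with signal on most arrays gave 0.91, 0.72 and 0.74. The call of Dnajc6 was lost when its probe sets were averaged (0.35) and when the actin difference was fitted (0.53). That average took in probe sets never over 5. The other Dnajc6 probe set with signal, over 5 on 10 arrays, gave 1.04.

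In the DNAJB class 3 of 9 tested genes were higher and 1 lower. Dnajb2, a neuronal J protein that hands clients to the proteasome, read 10.81, 10.59 and 10.58 at P40, against 9.46, 8.69 and 9.10 at P7, 2.98-fold higher (SE 0.24, adjusted p = 0.00012). Dnajb4 was 2.17-fold higher and Dnajb9, a J protein of the endoplasmic reticulum, 1.99-fold (adjusted p = 0.012 and 0.013). Dnajb5 read 7.59, 7.88 and 7.99 at P40, against 8.39, 9.21 and 9.16 at P7, 2.15-fold lower (adjusted p = 0.013). Dnajb9 lost its call without P7 replicate 3 (0.65) or P40 replicate 2 (0.82), and Dnajb5 without P7 replicate 2 (-0.96) or P40 replicate 1 (-0.99). Dnajb6 and Dnajb11, not called, gave 0.27 and -0.19, and Dnajb12 gave -0.26. Dnajb14 varied widely within ages, from 8.31 to 11.34 at P7 and from 7.36 to 10.61 at P25. It was not called (difference 1.80, SE 0.78, adjusted p = 0.073), but was called without P7 replicate 3 (2.38) or without P25 replicates 2 or 3 (1.80). Averaging its probe sets (2.08) or fitting the number of cells (2.33) also gave a call. Its other probe set, over 5 on all 15 arrays, gave 2.35.

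**Figure D3:**
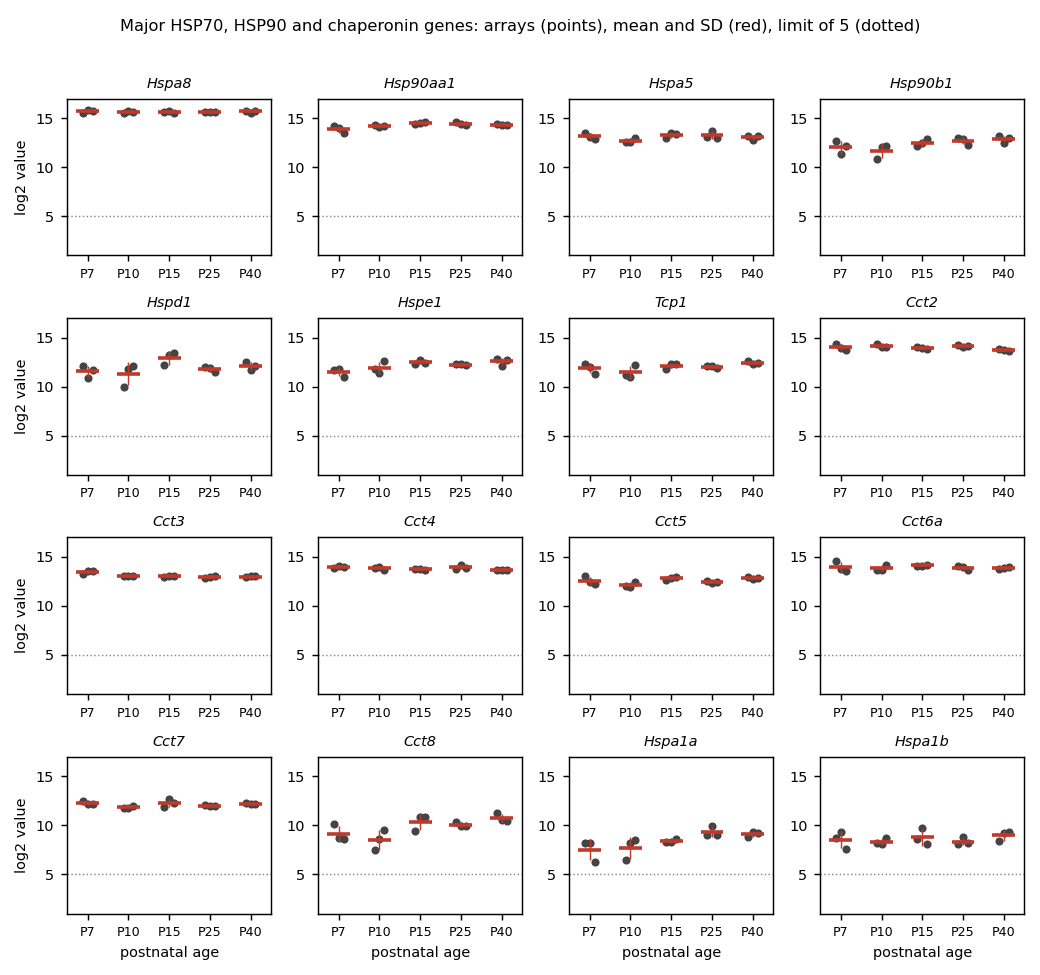
Log2 value (vertical axis) by postnatal age (horizontal axis) for the main HSP70 and HSP90 genes, the mitochondrial chaperonin genes and the 8 genes of the CCT ring. Points are arrays, red bars the mean and SD of 3 arrays, and the dotted line the limit of 5. Hspa8 has means of 15.69 at P40 and 15.69 at P7, and Cct8 averages 10.76 at P40 and 9.14 at P7.

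The CCT ring is built from 8 different subunits, encoded by Tcp1 and Cct2 to Cct8 with Cct6a, and all 8 genes were over 5 on every array. At P40, 1 was higher, 2 were lower and 5 were not called, with a median log2 difference of -0.09. Cct3 read 12.95, 13.03 and 13.02 at P40, against 13.22, 13.58 and 13.52 at P7, with no overlap and little spread (1.35-fold lower, SE 0.12, adjusted p = 0.0068). Its 3 P7 arrays lay above all 12 later arrays. The call of Cct3 was lost when its probe sets were averaged (-0.13) and when the actin difference was fitted (-0.33). That average took in probe sets never over 5. The other Cct3 probe sets over 5 on all 15 arrays gave -0.18 and -0.53. Cct4 read 13.69, 13.63 and 13.67 at P40, against 13.89, 14.03 and 13.95 at P7 (1.22-fold lower, adjusted p = 0.049). Cct8 read 11.24, 10.55 and 10.47 at P40, against 10.09, 8.69 and 8.62 at P7 (3.07-fold higher, SE 0.52, adjusted p = 0.021). Tcp1 was not called, at 12.57, 12.32 and 12.44 at P40, against 12.27, 12.01 and 11.33 at P7, although the arrays did not overlap (difference 0.57, adjusted p = 0.11). Cct2, Cct5, Cct6a and Cct7 gave -0.28, 0.26, -0.08 and -0.10, with adjusted p from 0.13 to 0.79. Cct4 lost its call under 18 of 28 other settings, including without any 1 of the 3 P7 or 3 P40 arrays, P10 replicate 2, any 1 of the 3 P15 arrays or P25 replicate 3 (differences -0.32 to -0.25). Cct8 lost its call without P7 replicates 2 or 3 or P40 replicate 1 (1.36 to 1.40). It gave 0.44 with the actin difference fitted, 0.97 with the number of cells fitted and 0.71 averaged over probe sets, none called. That average took in a probe set never over 5. Without P7 replicate 3 Cct2 was called lower (-0.43), without P7 replicate 1 Cct5 was called higher (0.49), and without P10 replicate 3 Tcp1 was called higher (0.57). The other Cct2 probe sets, over 5 on all 15 arrays, pointed both ways, at 0.425 and -0.243.

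The mitochondrial chaperonin genes Hspd1 and Hspe1 share the promoter stretch shown above. Hspe1, the lid of the chamber, read 12.83, 12.09 and 12.75 at P40, against 11.73, 11.80 and 10.98 at P7, 2.08-fold higher with no overlap (SE 0.29, adjusted p = 0.0091). Hspd1, the chamber itself, read 12.50, 11.74 and 12.11 at P40, against 12.06, 10.91 and 11.65 at P7, an overlap (difference 0.58, SE 0.48, adjusted p = 0.35). Its highest mean was at P15, with 12.15, 13.25 and 13.39. Of the HSP90 genes 2 were measured; Hsp90ab1 was not analysed here. Cytosolic Hsp90aa1 read 14.39, 14.32 and 14.35 at P40, against 14.19, 13.97 and 13.50 at P7 (1.38-fold higher, adjusted p = 0.015), and Hsp90b1, which encodes GRP94 of the endoplasmic reticulum, read 13.14, 12.51 and 12.97 at P40, against 12.66, 11.34 and 12.15 at P7 (difference 0.83, adjusted p = 0.084). Hsp90aa1 lost its call without P7 replicate 3 (0.28) and after scaling to equal medians (0.25). Hsp90b1 was called without P7 replicate 1 (1.13) or P10 replicate 1 (0.83), and its other probe set gave -0.46.

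Of the 6 BAG genes, all tested, 3 were higher at P40 and 0 lower. Beside Bag3, Bag5, a protein with several BAG domains, read 9.60, 9.23 and 9.33 at P40, against 8.32, 7.19 and 8.19 at P7. It was 2.81-fold higher (SE 0.39, adjusted p = 0.0062). The log2 difference of 1.49 was 0.73 over all its probe sets, of which the other one never exceeded 5. Bag1, which links HSP70 to the proteasome, read 11.70, 11.36 and 11.29 at P40, against 10.98, 11.10 and 10.79 at P7, 1.41-fold higher (adjusted p = 0.036). Bag2, Bag4 and Bag6 were not called, with differences of 0.20, 1.07 and -0.28 (adjusted p = 0.71, 0.09 and 0.49). Bag1 lost its call under 12 of 28 other settings, among them without P7 replicates 1 or 3 and without P40 replicates 1 or 2 (0.37 to 0.54), and Bag4 was called without P7 replicate 3 (1.58).

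**Figure D4:**
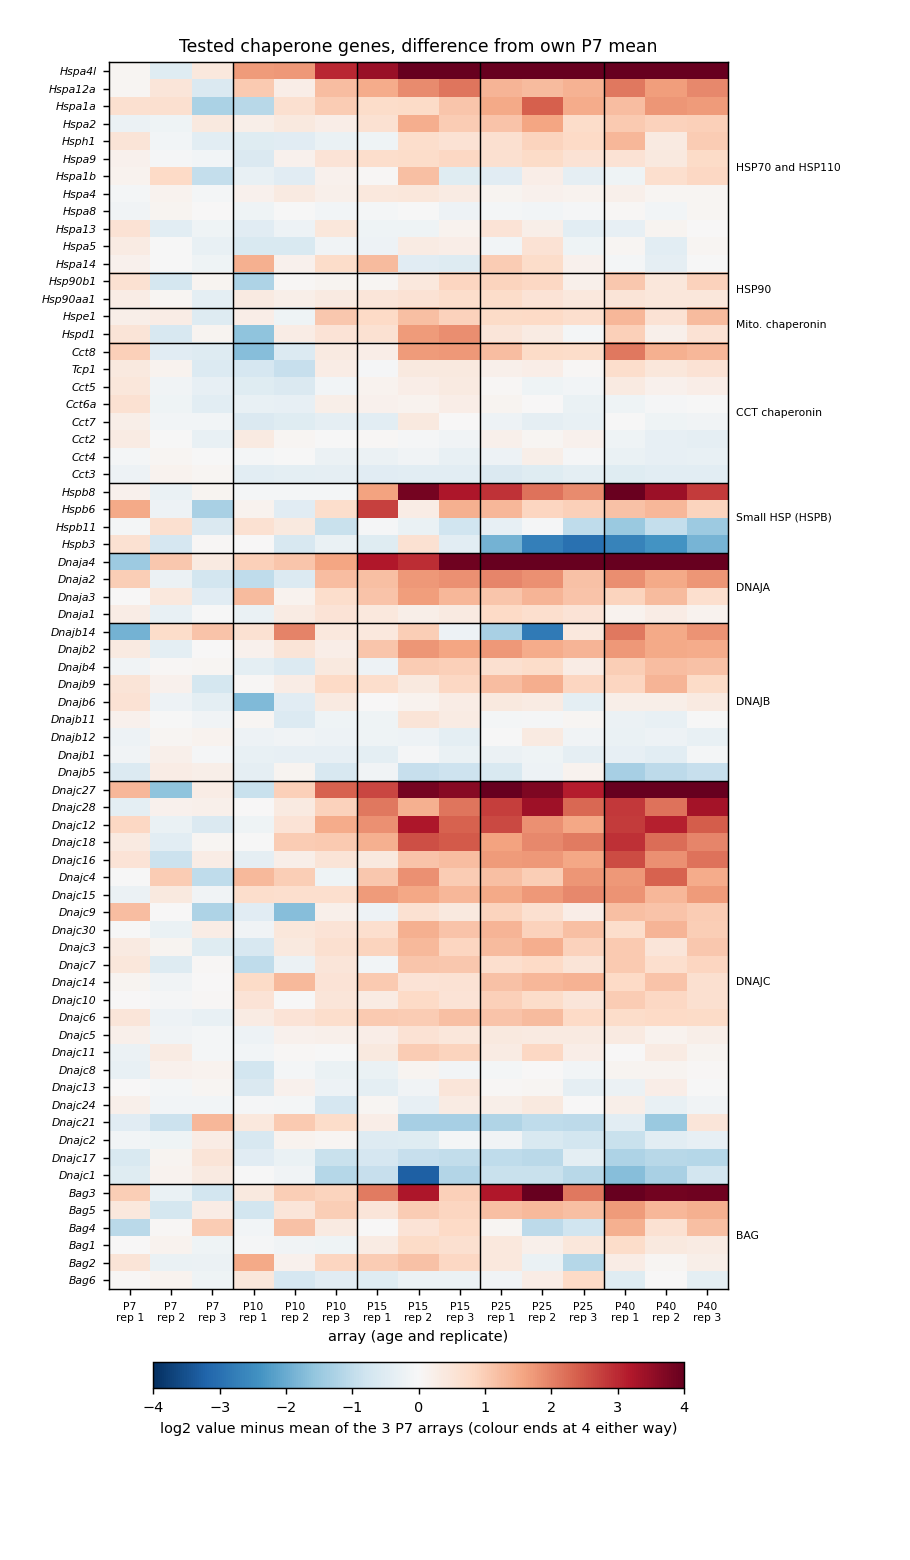
Log2 value minus the gene's own P7 mean (colour, red above and blue below, ending at 4 either way) for the 70 tested chaperone genes (rows, by family) on the 15 arrays (columns, by age). The strongest colours start at P15 in rows such as Hspb8 and Dnajc12 and at P10 in Hspa4l, and P15 replicates 2 and 3 are redder than P15 replicate 1 in many rows.

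The steps between neighbouring ages ask when the differences arose. From P7 to P10 only Hspa4l was called among the 70 genes (1.43%, against 3.60% of all tested genes, 2.37% higher and 1.23% lower), with a difference of 2.16 (SE 0.33, adjusted p = 0.0015). From P10 to P15, 16 were higher and 0 lower, 22.9% of the chaperone genes against 11.4% of all genes, 8.57% higher and 2.79% lower. The median log2 difference in that step was 0.57 over the 70 genes and 0.21 over all tested genes. 14 of these 16 were also higher in P40 minus P7. That comparison shares no arrays with this step, but both use the same fitted spread of each gene, so the calls are not independent. Over all tested genes 710 of 828 did so (85.7%, against 87.5% of the chaperone genes), so this share is close to that of genes in general. Of the genes higher in P40 minus P7, these were 14 of 30 chaperone genes (46.7%) and 710 of 2662 tested genes (26.7%). Among the 16, the exceptions were Cct5 and Hspd1. The largest fitted differences were those of Hspb8 (adjusted p = 0.0038), whose P10 arrays were all under 5 and whose difference was 0.97 with values under 5 set to 5, Dnajc27 (2.56, adjusted p = 0.038) and Dnaja4 (2.14, adjusted p = 0.017). From P15 to P25 the single call was Hspb3 (1.43%, against 4.86% of all genes, 2.37% higher and 2.49% lower). From P25 to P40 none of the 70 was called by limma (0.673% of all genes were, 0.404% higher and 0.269% lower), while 7 had an unadjusted p under 0.05, against 11.4% of all genes. Over all ages the moderated F test called 38 of 70 genes, 54.3%, against 47.2% of all.

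**Figure D5:**
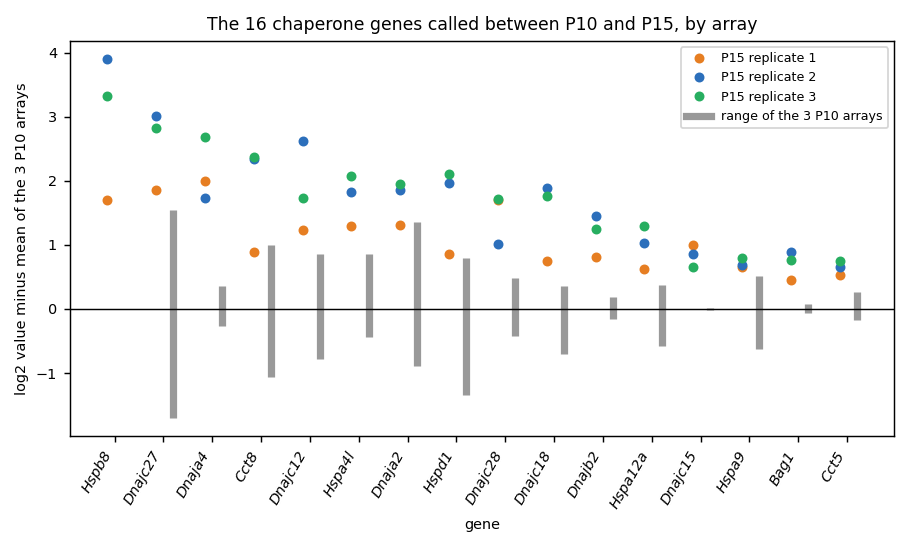
For the 16 chaperone genes called between P10 and P15 (horizontal axis), the log2 value of each P15 array minus the mean of the 3 P10 arrays (vertical axis). Coloured points are the 3 P15 arrays and grey bars the range of the 3 P10 arrays. Replicate 1 is the lowest P15 array for most genes, and all 3 arrays lie above 0 for all 16 genes.

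The count for the P10 to P15 step changed with single arrays. All 16 genes lay above the P10 mean on each P15 array, by a median of 0.95 on replicate 1, 1.78 on replicate 2 and 1.75 on replicate 3, values that the choice of the 16 used. Over all 70 tested genes the medians were 0.28, 0.74 and 0.60, against 0.09, 0.31 and 0.26 over all tested genes. Without P15 replicates 2 and 3, the arrays with low spiked controls, no chaperone gene was called by limma in the step (0.33% of all genes were), but this leaves 1 P15 array, assumed to vary like the other ages, so few calls could be made. The count was 2 without P15 replicate 2, 3 without P15 replicate 3, 3 without P10 replicate 1, 3 without P10 replicate 2 and 10 without either P25 replicate 2 or P40 replicate 3. Fitting the number of cells left 0 calls, fitting the actin difference left 3, and weighting the arrays gave 35. Fewer cells were picked at P15 (34, 23 and 45) than at P10 (71, 72 and 47). The part of cell number and RNA length in this step was not tested apart from age.

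Genes outside the symbol rule that work with these chaperones were counted in 5 lists, to be read against the 27.5% of all tested genes that were higher and 17.6% that were lower. Of 17 tested HSP90 co-chaperones, 6 were higher at P40 and 2 lower (median log2 difference 0.55). Ahsa1, which speeds HSP90's ATPase, was 2.13-fold higher (adjusted p = 0.00014) and the kinase adaptor Cdc37 4.76-fold (adjusted p = 0.00025), while Unc45a and Ahsa2 were 2.38-fold and 1.62-fold lower. Of 14 partners of HSP70 outside the rule, 7 were higher and 2 lower (median 0.74). Sgtb, a neuronal adaptor, was 7.49-fold higher (adjusted p = 6.4e-06) and Ttc1 5.67-fold (adjusted p = 0.00037), while the mitochondrial exchange factor Grpel2 was 2.39-fold lower and Hip1 averaged 4.52 ± 0.97 (SD, n = 3) at P40 and 9.92 ± 0.18 at P7. Hip1 encodes a clathrin adaptor, not the HSP70-interacting protein of the same abbreviation, and stood in the list by its symbol. Of 17 prefoldin, phosducin-like and tubulin cofactor genes that serve CCT and its products, 1 was higher (Tbce) and 3 lower, Tbca and Pdrg1 among them (median -0.05).

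Of 19 tested genes of folding and the unfolded protein response in the endoplasmic reticulum, 5 were higher and 1 lower (median -0.14). The higher genes with the smallest p encode stress sensors: Eif2ak3 (PERK) was 5.20-fold higher (adjusted p = 0.00035), Atf6 read 8.36, 8.06 and 7.82 at P40, against 5.70, 3.79 and 4.36 at P7 (adjusted p = 0.00028), and the secreted chaperone-like Creld2 was 3.31-fold lower. Of 6 tested heat shock factor and stress genes, 2 were higher, Ddit3 (3.38-fold, adjusted p = 0.00044) and the HSP90 partner Chordc1 (2.41-fold, adjusted p = 0.0013), and 0 lower. Hsf2 had no array over 5. The small heat shock protein gene Cryab, which the symbol rule leaves out, read 3.47, 3.59 and 3.63 at P7, 9.02, 3.60 and 3.37 at P10, 3.49, 3.26 and 3.25 at P15, 5.58, 5.45 and 5.97 at P25 and 4.34, 3.26 and 3.25 at P40. It was over 5 on 4 arrays, P10 replicate 1 and the 3 P25 arrays, and was not called at P40 (difference 0.05, SE 1.02, adjusted p = 0.97). Mbp, an oligodendrocyte marker, was highest on the same P25 arrays, at 11.58, 11.56 and 10.48, and read 7.10, 8.05 and 8.36 at P10.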

How the data were processed

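The authors deposited log2 values for 45101 probe sets on 15 arrays, summarised with GCRMA, per the submitters' processing notes. GCRMA adjusts background by probe sequence and normalizes arrays to 1 distribution. No read depth exists, and 3 arrays per age limit the precision.

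Probe sets were named through the platform annotation: 34945 had 1 gene, 932 had several and were not used, and control probe sets were left out. A gene was tested when its chosen probe set exceeded 5 on at least 3 of 15 arrays. A model with 1 mean per age was fitted to 9663 genes with limma 3.58.1 in R 4.3.3 (eBayes with a trend, 10 residual degrees of freedom), with Benjamini-Hochberg adjustment over all of them and calls at an adjusted p under 0.05. The script was tested on simulated data. Folds need both means above 5; bounds are set against 5.

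Genes were named by rule: the 12 largest called rises and all falls at P40, the 3 largest per step, a set list of main family members, and in each list the 2 genes with the smallest p per direction. Fos, Gfap, Mbp, Cryab, Hsf2, Dnajb14 and other members beyond that rule were added after their values were seen. The members and lists were chosen with earlier results of these data known. Replicate numbers were given in the labels, but over 30 pairs of same-numbered arrays the correlation of deviations ran from -0.405 to 0.275 and 3 exceeded 0.1, so the numbers do not pair the animals. The 28 alternatives covered normalization, filters, probe sets, covariates, weights, the replicate block and left-out arrays.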

Additional observations from a re-analysis of the deposited data

How the results depend on the processing

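No called value changed sign under the 28 alternatives. Over the values of single genes, 1795 of 1948 pairs of value and setting kept their side of the threshold, 112 lost a call and 41 gained one. The P40 minus P7 count of 36 was 14 after fitting the actin difference and 28 to 39 with 1 array left out. The P10 minus P7 count of 1 was 2 with array weights, 0 on the 2 ages alone and 1 to 3 with 1 array left out. The P15 minus P10 count of 16 was 9 with quantile normalization, 8 with equal medians, 6 with no filter, 10 with no variance trend, 35 with array weights, 3 with the actin covariate, and 0 with cells picked as a covariate, without P15 replicates 2 and 3, or on the 2 ages alone. It ran from 2 to 23 with 1 array left out. The P25 minus P15 count of 1 was 0 with the filter at 7 or without P15 replicates 2 and 3, 2 with values under 5 set to 5, 7 with array weights and 1 to 2 with 1 array left out. The P40 minus P25 count of 0 was 5 with no filter, 7 with array weights and 0 to 1 with 1 array left out. The F test count of 38 was 22 with either covariate and 27 to 46 with 1 array left out. The causes were not tested.

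With the replicate number as a block the P40 minus P7 count was 34, without Bag1 and Hspa9, and the P15 minus P10 count was 8. The numbers did not pair the samples, so this is not read as a weaker effect. Probe sets never over 5 give no evidence on a gene's absence from the cells.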

Other observations

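Probe sets of the same chaperone gene did not always point the same way between P40 and P7, among probe sets over 5 on all 15 arrays. The second probe set of Cct7, a CCT ring gene, differed by 0.90 on the log2 scale, and its chosen probe set by -0.10. Hspa14, a ribosome-associated HSP70, gave 1.23 and, for the chosen one, -0.15. The probe sets not chosen were not tested.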
